A study of Mus musculus with 4 samples.

Results

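Neuropeptide Y (NPY) and somatostatin are the peptides of interest here, and the genes described are their precursors Npy and Sst, the NPY receptor genes Npy1r, Npy2r and Npy5r, and the somatostatin receptor genes Sstr1, Sstr2, Sstr3 and Sstr4. These 9 genes were chosen by symbol among the 20032 genes of the deposited table. RNA sequencing of the mouse olfactory bulb at postnatal day 11 was used to compare littermate controls without Cre with mutants lacking the zinc finger transcription factors Sp8 and Sp9. The mutants are referred to as DCKO (double conditional knockouts) and were Sp8 Flox/Flox and Sp9 Flox/Flox and carried the Dlx5/6-CIE transgene. That transgene places Cre under a Dlx5/6 enhancer, which is active in precursors of GABAergic neurons, so deletion is limited to cells of that lineage and their descendants. All animals shared a mixed background of C57BL/6J, 129S6 and CD1, and the labels do not say which floxed alleles the controls carried. Each genotype had 2 libraries, and nothing in the labels says whether the replicates came from separate animals or pools, so the p-values measure only the spread between these libraries.

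NPY and somatostatin are short peptides cut from larger precursors, stored in dense core vesicles and released mainly by inhibitory neurons of the forebrain. Their receptors couple to inhibitory G proteins (Gi/o), which lower cyclic AMP and open GIRK potassium channels, so both peptides generally dampen neuronal activity. In the olfactory bulb, Sst is found in scattered interneurons, and Npy is found in deep short-axon cells and also in olfactory ensheathing glia, the glia that wrap the incoming olfactory axons. RNA of the whole bulb cannot assign a transcript to a cell type, and fewer cells of a type cannot be told apart from less RNA per cell.

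The Sst promoter is a classic target of CREB, the transcription factor that binds the cyclic AMP response element (CRE). Sp family factors bind GC boxes. Both motifs, and a shorter form of the CRE, were therefore looked for in the 250 bases before each gene's start. RefSeq promoters (GRCm38.p6) were matched for 8 of the 9 members. The CRE, written TGACGTCA and identical on both strands, was found before Sst and Sstr2, and 1.55% of 32851 such windows of all genes hold it. The 30 bases around it are shown 5′ to 3′ on each gene's own strand, with the CRE in capitals, to set the peptide that changed beside a receptor that did not pass the test.
Sst, chr16:23890874-23890903, - strand: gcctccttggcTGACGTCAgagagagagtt
Sstr2, chr11:113619258-113619287, + strand: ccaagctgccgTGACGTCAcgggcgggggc
The GC box, searched as GGGCGG and its reverse complement CCGCCC, was found once before Npy, once before Npy2r and at 2 places before Sstr2, against 32.7% of all windows with at least 1. The full windows of Npy and Npy2r are shown because these are the 2 members with higher values in both DCKO libraries than in either control, with the GC box in capitals.
Npy, chr6:49822460-49822709, + strand: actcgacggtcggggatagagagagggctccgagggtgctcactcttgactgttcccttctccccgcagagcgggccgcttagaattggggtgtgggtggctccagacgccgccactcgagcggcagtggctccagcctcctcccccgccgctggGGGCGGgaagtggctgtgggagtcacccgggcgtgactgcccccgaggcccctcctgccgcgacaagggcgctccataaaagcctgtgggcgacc
Npy2r, chr3:82548086-82548335, - strand: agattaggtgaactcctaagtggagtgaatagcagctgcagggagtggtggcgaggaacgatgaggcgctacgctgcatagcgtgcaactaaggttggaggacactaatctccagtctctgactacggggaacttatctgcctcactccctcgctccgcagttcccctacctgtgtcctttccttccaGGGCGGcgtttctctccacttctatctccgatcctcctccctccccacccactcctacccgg
A match describes these letters only and is neither a measured binding site nor a cause. The CRE lies 48 bases before the RefSeq start of Sst. The GENCODE model of Sst begins 114 bases upstream of that start, so the annotations differ on whether the CRE is transcribed. The shorter form, TGACG or its reverse complement CGTCA, is held by 17.8% of all windows. It lies within the CREs of Sst and Sstr2, and 9 bases before the Sstr3 start that is 340 bases inside the GENCODE model. It also lies 18 bases before Cort, a related gene described below. The other RefSeq start of Sstr3 is 3279 bases inside that model, and that of Npy1r is 230 bases inside its own. The Sstr3 windows are thus within the annotated gene, and the Npy1r window largely is.

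Values are given in FPKM, a measure of fragments corrected for transcript length and for the depth of the library, and differences are DCKO minus control on the log2(FPKM + 1) scale, which understates the change of low genes. FPKM is relative to each library's total, so a rise cannot be told apart from a larger share left by falls of other genes. The 7 members with a mean of at least 1 FPKM were tested with limma across 13434 genes. Npy2r and Npy5r lay below that filter. Of the 7, Sst and Sstr3 fell, Npy rose, and 4 did not pass an adjusted p of 0.05. Over all tested genes, 14.3% fell and 13.0% rose, 27.3% in all. The median log2 change was -0.08 over the 7 and -0.02 over all tested genes. The groups did not overlap for 3 of the 7, against 71.5% of all tested genes.

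**Figure D1:**
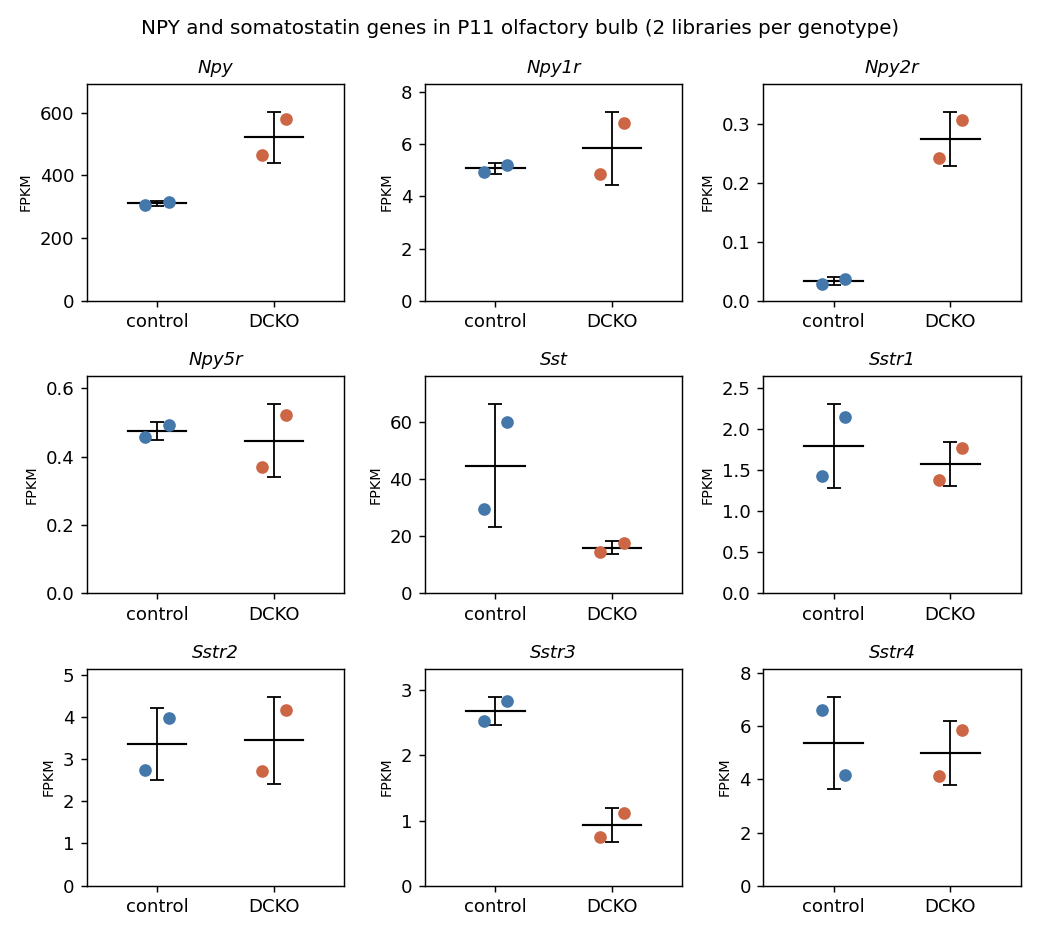
FPKM of each of the 9 genes (linear axes starting at 0, a different scale per panel) in the 2 control and 2 DCKO libraries, with the mean (line) and SD (bars). Npy and Npy2r are higher and Sst and Sstr3 lower in both DCKO libraries than in both controls, and the other 5 genes overlap.

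Npy and Sst, the 2 peptide precursors, changed in opposite directions. Npy (ENSMUSG00000029819.6, chr6:49822710-49829507, + strand, 4 exons) stood at 305 and 315 FPKM in controls 1 and 2 and at 464 and 578 FPKM in DCKO 1 and 2. Both DCKO libraries lay above both controls, and the controls differed little from each other. The mean rose 1.68-fold, with a log2 change of 0.74 (SE 0.12, 95% confidence interval 0.42 to 1.06, limma adjusted p = 0.0163). By mean FPKM over the 4 libraries Npy ranked 82nd of all 20032 genes, and its change ranked 564th from the most raised of the tested genes. With control replicate 1 left out, the call was lost (log2 change 0.72, adjusted p = 0.0515).

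Sst (ENSMUSG00000004366.4, chr16:23889573-23890958, - strand, 2 exons) stood at 29.4 and 59.8 FPKM in controls 1 and 2 and at 14.3 and 17.6 FPKM in DCKO 1 and 2. The controls themselves differed 2.03-fold, and the lower of them was still 1.67 times the higher DCKO library. The mean fell 2.79-fold, with a log2 change of -1.35 (SE 0.34, 95% confidence interval -2.22 to -0.48, limma adjusted p = 0.0429). The call did not hold without DCKO replicate 1 (adjusted p = 0.154) or DCKO replicate 2 (0.102), with no filter (0.0925) and without the variance trend (0.0551). The size of the change turned on the controls: it was -1.85 without control replicate 1 and -0.85 without control replicate 2. Set against each other, Npy was 10.4 and 5.27 times Sst in control bulbs against 32.4 and 32.9 times in mutant bulbs, so the DCKO libraries were nearly alike in this ratio while the controls were not.

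Cort encodes cortistatin, a close relative of somatostatin that binds the same receptors, and it was the only tested gene among the other family genes. It fell from control values of 6.65 and 5.41 FPKM to 2.26 and 0.592 FPKM in DCKO (log2 change -1.62, SE 0.35, limma adjusted p = 0.0311). These values rest on about 21 and 17 fragments in control bulbs and 7 and 2 in mutant bulbs. The call was lost on scaled counts (adjusted p = 0.0807) and with no filter (0.0730). Of the others, Sstr5 measured 0.0561 and 0 FPKM in control bulbs against 0.0798 and 0.0747 in mutant bulbs, Npy4r was above 0 in 1 library (0.0307 FPKM, DCKO 2), and Npy6r was listed at 0 in all 4.

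The NPY receptors held 1 tested member. Npy1r (ENSMUSG00000036437.6, chr8:66697192-66706792, + strand), the main postsynaptic NPY receptor, stood at 4.93 and 5.22 FPKM in controls 1 and 2 and at 4.86 and 6.84 in DCKO 1 and 2. One DCKO library lay below both controls and the other above, and the log2 change of 0.16 did not pass the test (95% confidence interval -0.25 to 0.57, limma adjusted p = 0.481). Npy5r (chr8:66679965-66688128, - strand), which lies beside Npy1r and is transcribed away from it, measured 0.456 and 0.493 FPKM in control bulbs against 0.370 and 0.521 in mutant bulbs. Its groups overlapped too, and with about 21, 25, 18 and 26 fragments per library the ratio of DCKO to control was 0.913 (95% exact conditional interval 0.590 to 1.41, counting error only).

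Npy2r (ENSMUSG00000028004.12, chr3:82538383-82548084, - strand), an NPY receptor known for acting presynaptically on NPY release, was the rarest member in both genotypes. It stood at 0.0279 and 0.0376 FPKM in controls 1 and 2 and at 0.242 and 0.307 FPKM in DCKO 1 and 2. These values correspond to about 2 and 3 fragments in the controls against 20 and 26 in DCKO. The ratio of DCKO to control over these fragments was 8.78, with a 95% exact conditional interval of 3.50 to 28.3 that covers counting error only. Npy2r was not tested with the filter at 1 FPKM. With no filter it passed (log2 change 0.30 on the log2(FPKM + 1) scale, limma adjusted p = 0.0389). Even in DCKO its level was below that of every other member.

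Among the somatostatin receptors, Sstr3 fell and Sstr1, Sstr2 and Sstr4 did not pass the test. Sstr3 (ENSMUSG00000044933.3, chr15:78537008-78544685, - strand) encodes the somatostatin receptor known for its place on neuronal primary cilia. It stood at 2.53 and 2.83 FPKM in controls 1 and 2 and at 0.746 and 1.11 FPKM in DCKO 1 and 2. The lower control was 2.27 times the higher DCKO library, and the spread within each genotype was small beside that gap. The mean fell 2.88-fold, with a log2 change of -0.94 (SE 0.15, 95% confidence interval -1.33 to -0.54, limma adjusted p = 0.0160). On scaled counts, where the added 1 weighs less, the log2 change was -1.46, and on log2(FPKM + 0.1) it was -1.45.

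The other 3 somatostatin receptors had overlapping groups, and their differences are given on the log2(FPKM + 1) scale. Sstr1 (chr12:58211772-58214444, + strand) had control values of 1.43 and 2.15 FPKM and DCKO values of 1.38 and 1.76 (difference -0.11, 95% interval -0.58 to 0.36). Sstr2 (chr11:113619342-113626028, + strand), a widely expressed receptor of neurons, had control values of 2.75 and 3.97 FPKM and DCKO values of 2.72 and 4.18 (difference 0.02, interval -0.55 to 0.60). Sstr4 (chr2:148395344-148396767, + strand, 1 exon) had control values of 6.60 and 4.16 FPKM and DCKO values of 4.13 and 5.86 (difference -0.08, interval -0.69 to 0.54). All 3 intervals exclude a fall as large as the -0.94 of Sstr3, and smaller changes in either direction lie within them. Without DCKO replicate 2 the Sstr4 interval reached -1.10 and no longer excluded it. Sstr2 overlaps Slc39a11 on the opposite strand, and without a stated strand setting reads of the pair cannot be separated.

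**Figure D2:**
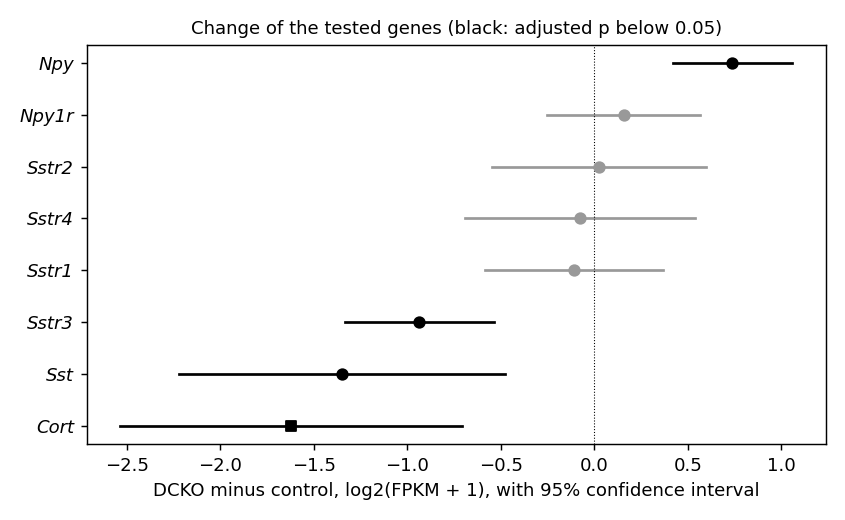
Log2 change (DCKO minus control, log2(FPKM + 1), circles) with 95% confidence intervals for the 7 tested members, and for Cort (square). Npy, Sstr3, Sst and Cort have an adjusted p below 0.05 (black), and the intervals of Npy1r, Sstr1, Sstr2 and Sstr4 (grey) include 0.

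Within each library, Sstr3 took a smaller share of its receptor family in DCKO than in controls. Sstr3 made up 19.0% and 21.6% of the summed FPKM of the 4 somatostatin receptors in controls 1 and 2, and 8.31% and 8.63% in DCKO 1 and 2. Its level minus the mean of the other 3 was -0.22 and -0.17 on the log2(FPKM + 1) scale in control bulbs, and -1.03 and -1.12 in mutant bulbs. These values did not overlap, and with 2 libraries per genotype a two-sided exact permutation test cannot go below p = 0.333, the value found here. Npy1r made up 91.1% and 90.8% of the 3 NPY receptors in the controls and 88.8% and 89.2% in DCKO, while Npy2r went from 0.515% and 0.654% to 4.43% and 4.01%. The summed FPKM of the somatostatin receptors was 13.3 and 13.1 in control bulbs against 8.98 and 12.9 in mutant bulbs. For the NPY receptors the sum was 5.42 and 5.75 in control bulbs against 5.47 and 7.67 in mutant bulbs.

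**Figure D3:**
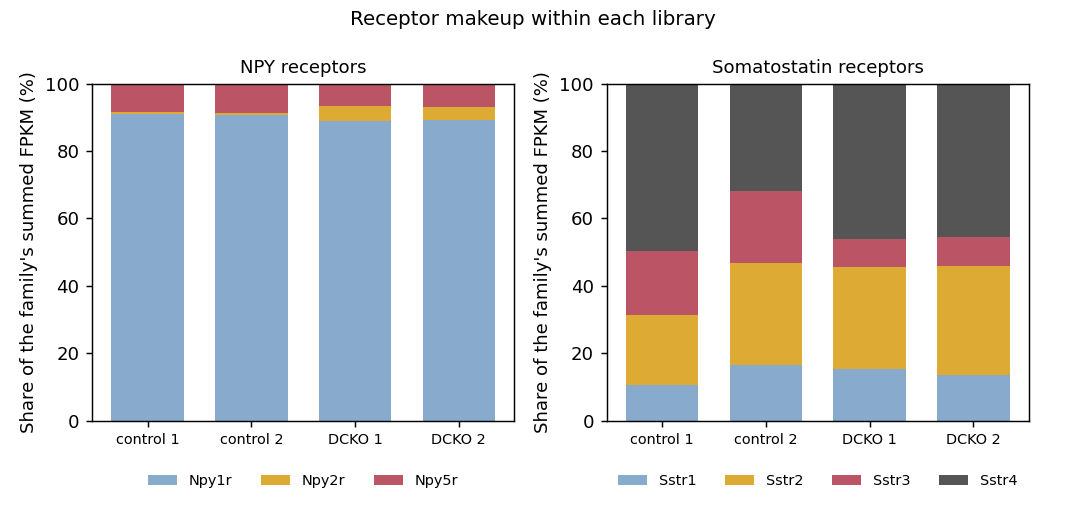
Share of each receptor in its family's summed FPKM (percent, stacked to 100) in each of the 4 libraries, NPY receptors left and somatostatin receptors right. The Sstr3 share is 19.0% and 21.6% in the controls and 8.31% and 8.63% in DCKO, and Npy1r is between 88.8% and 91.1% of its family in every library.

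By mean FPKM the order in controls was Npy, Sst, Sstr4, Npy1r, Sstr2, Sstr3, Sstr1, Npy5r and Npy2r. Sstr4 and Npy1r overlapped between libraries, as did Sstr2 and Sstr3, and the other neighbours in this order did not. In DCKO the order was Npy, Sst, Npy1r, Sstr4, Sstr2, Sstr1, Sstr3, Npy5r and Npy2r, with Npy1r overlapping Sstr4 and Sstr4 overlapping Sstr2. The order depended on the transcript length used. Scaled counts per kilobase of GENCODE exon placed Sstr1 (44.8 and 68.8) beside Sstr4 (51.7 and 32.5) in the controls, whereas FPKM placed Sstr1 lowest of the 4. In DCKO, Sstr1 stood at 44.4 and 55.5 per kilobase and Sstr4 at 31.6 and 45.3. Their shares of the family per kilobase in DCKO were 42.0% and 37.8% for Sstr1 and 29.8% and 30.9% for Sstr4. On that scale Npy stood at 2253 and 2285 and Sst at 186 and 362 in the controls, and Sstr3 made up 23.1% and 23.2% of its family in the controls and 10.1% and 10.8% in DCKO.

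Genes that mature these precursors moved in both directions. Of 6 processing genes, 2 rose and 1 fell, with a list median of 0.20. Over all tested genes 13.0% rose and 14.3% fell, the shares to set beside this list and each later one. Carboxypeptidase E, Cpe, which trims the cut peptides, rose from 396 and 431 to 744 and 601 FPKM (log2 change 0.69, limma adjusted p = 0.0204). The amidating enzyme Pam, which finishes the NPY carboxyl end, rose as well (0.53, adjusted p = 0.0300), and the convertase Pcsk2 fell (-0.55, adjusted p = 0.0230). All of these calls were lost without control replicate 1 (adjusted p 0.0538 to 0.0821) and without control replicate 2 (0.0512 to 0.0823), and that of Pam also without DCKO replicate 1 (0.0533). With no filter they were lost too (0.0503 to 0.0617). Pcsk1n did not pass in this comparison (0.20, limma adjusted p = 0.0746). It passed as higher under quantile normalization (0.0432) and on scaled counts (0.0453). Scg5, the chaperone of Pcsk2, did not pass in this comparison (-0.67, adjusted p = 0.108) and passed as lower without control replicate 1 (adjusted p = 0.0154).

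Of 7 dense core vesicle genes, 3 rose and none fell (list median 0.31). The secretogranin Scg2 rose from 95.2 and 108 to 176 and 159 FPKM (0.71, limma adjusted p = 0.0103). Chga (0.36) and Scg3 (0.31) rose by less. Both calls were lost without either control replicate (0.33 to 0.38 for Chga, 0.23 to 0.39 for Scg3). That of Scg3 was also lost without DCKO replicate 1 (0.27) or 2 (0.35). With all libraries kept, the Scg3 call was lost with no filter (limma adjusted p = 0.0766), under median-of-ratios scaling (0.0612) and without the variance trend (0.0721). Vgf, an activity-regulated granule protein, passed only without control replicate 1 (-0.50, adjusted p = 0.0345). Among 6 peptidases that cleave neuropeptides, neurolysin, Nln, rose (6.80 and 6.26 to 10.4 and 11.6 FPKM, 0.67, adjusted p = 0.0106) and the other 5 did not pass in this comparison. Mme, the neprilysin gene, passed without control replicate 1 (0.79, adjusted p = 0.0271), under quantile normalization (0.0477) and on scaled counts (0.0394). Dpp4, which trims NPY, passed on scaled counts (0.0183) and without the variance trend (0.0223), so that 3 of the 6 rose on scaled counts.

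Receptor coupling genes fell more often than they rose. Of 8 tested Gi/o and GIRK genes, 5 fell and 1 rose (list median -0.53), against 14.3% and 13.0% of all tested genes. Under median-of-ratios scaling, without the variance trend, with a replicate block and on scaled counts, 4 of the 8 fell. Kcnj3, the GIRK1 channel subunit, fell from 25.3 and 27.6 to 7.88 and 8.21 FPKM (log2 change -1.60, limma adjusted p = 0.00112). The channel subunits Kcnj6 (GIRK2, -0.95, adjusted p = 0.0125) and Kcnj9 (GIRK3, -0.81, adjusted p = 0.0104) and the G protein subunit Gnai1 (59.8 and 63.9 to 30.4 and 32.5 FPKM, -0.95, adjusted p = 0.00280) fell too. Kcnj5, the remaining listed channel subunit, lay below the filter with overlapping groups (0.900 and 0.127 FPKM in control bulbs, 0.611 and 0.477 in mutant bulbs). Gnao1 fell (-0.25, adjusted p = 0.0472) and Gnai2 rose (0.42, adjusted p = 0.0370). The Gnao1 call was lost without any one of the 4 libraries (-0.27 to -0.22). It was also lost on scaled counts (-0.11, limma adjusted p = 0.253) and with no filter (0.0647). Median-of-ratios scaling (0.0514) and a fit without the variance trend (0.0746) lost it as well. The Gnai2 call was lost without control replicate 1 (0.40) or 2 (0.45). With no filter (limma adjusted p = 0.0709) and without the variance trend (0.0531) it was lost too. Of 6 arrestins and receptor kinases none was called by limma, with 1 at an unadjusted p below 0.05. The 2 of highest mean were Arrb1 (0.37, adjusted p = 0.0596) and Adrbk1 (-0.01, adjusted p = 0.892), and Arrb1 passed without DCKO replicate 2 (0.51, adjusted p = 0.0259), under quantile normalization (0.42, 0.0365) and on scaled counts (0.44, 0.0286).

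**Figure D4:**
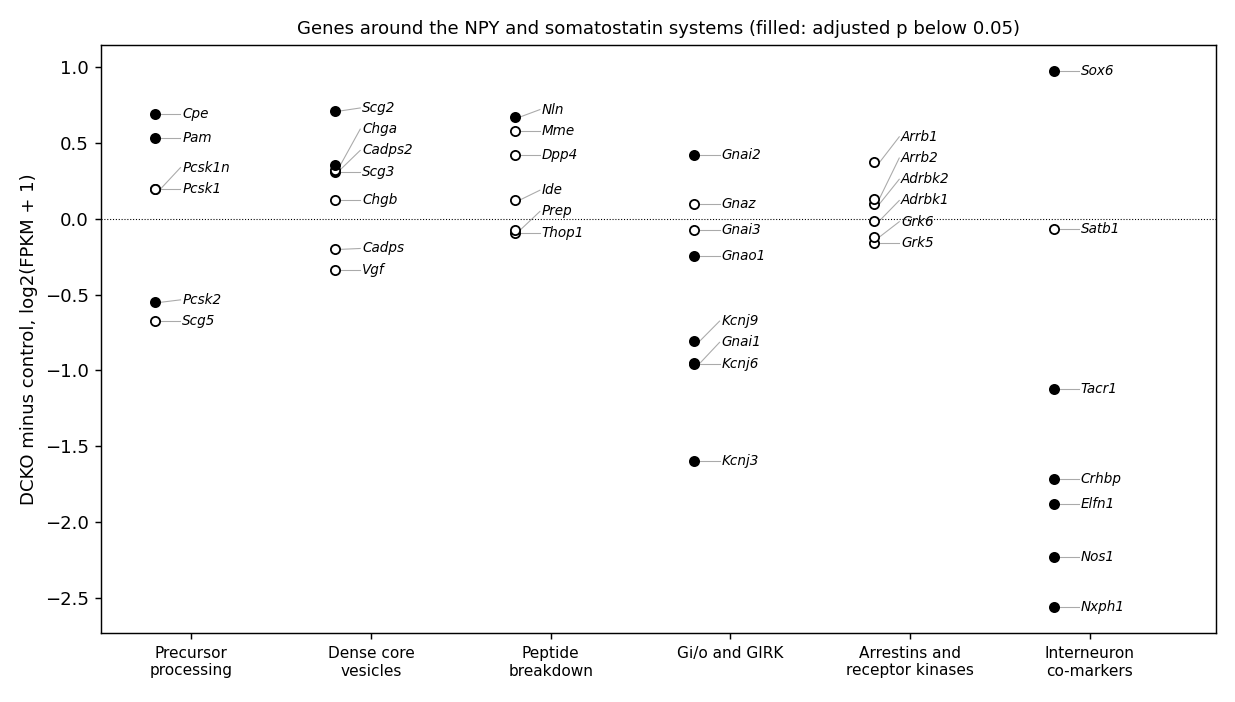
Log2 change (DCKO minus control, log2(FPKM + 1)) of each tested gene in 5 pathway lists and in the list of genes shared by Sst or Npy interneurons, filled where the adjusted p is below 0.05. The 3 tested GIRK subunits Kcnj3, Kcnj6 and Kcnj9 lie between -0.81 and -1.60, and 5 of the 7 interneuron genes lie below -1.

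Among other genes of Sst or Npy interneurons that passed the filter, most were lower. Of 7 tested, 5 fell and 1 rose (list median -1.72). The neurexophilin Nxph1 fell from 22.7 and 24.7 to 2.80 and 3.63 FPKM (-2.56, limma adjusted p = 0.00110), and Nos1, which makes nitric oxide, from 11.8 and 11.3 to 1.64 and 1.70 FPKM (-2.23). Crhbp (-1.72), Elfn1 (-1.88) and the substance P receptor Tacr1 (-1.12) fell too, while Sox6 (0.97) rose. Satb1 did not pass the test, and its groups overlapped (6.49 and 7.17 FPKM in control bulbs, 6.11 and 6.81 in mutant bulbs). Lhx6, which defines such cells in the cortex, lay below the filter (0.0367 and 0.233 FPKM in control bulbs, 0.447 and 0.346 in mutant bulbs). Chodl lay below it as well, with overlapping groups (0.837 and 0.576 FPKM in control bulbs, 0.823 and 1.22 in mutant bulbs). Several of these genes are also expressed by other bulb neurons.

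Markers of other cells changed in both directions. For bulb GABAergic and granule cells, 8 of 8 genes fell, led by Penk (-3.64). Their summed FPKM was 752 to 774 in the controls and 93.0 to 138 in DCKO. For ensheathing glia, which can express Npy, 3 of 7 genes rose, led by Ngfr (0.84). The summed FPKM of that list was 2084 to 2157 in the controls and 2953 to 3383 in DCKO, 1.49 times as high. Most of that sum is Fabp7, which other glia share. Its call (0.58) was lost with either control left out (highest adjusted p = 0.234), with no filter (0.166) and under quantile normalization, where its change was 0.13 (0.353). Mitral and tufted cell markers rose for 6 of 6 (led by Tbx21, 1.58), with sums of 737 to 804 and 1425 to 1595 FPKM. Astrocyte markers rose for 5 of 5 (led by Gfap, 1.89), with sums of 446 to 459 and 873 to 906 FPKM. Microglia markers rose for 3 of 5 (led by Aif1, 0.73) with sums of 50.1 to 51.9 and 63.3 to 66.8 FPKM, and vascular markers for 2 of 5 (led by Pdgfrb, 0.45) with sums of 114 to 117 and 147 to 149 FPKM. Without control replicate 2 none of the 5 microglia markers was called (adjusted p 0.0547 to 0.0713 for the 3), and without control replicate 1 only Aif1 was, whose call was also lost without DCKO replicate 2 (0.0522). None of the 5 vascular markers was called without control replicate 1 (0.0745 for Pdgfrb and 0.0821 for Cldn5) or 2 (0.121 and 0.124), and the Pdgfrb call was also lost without DCKO replicate 2 (0.0575). For excitatory neurons of neighbouring cortex, where Sst and Npy cells are common, 1 of 3 genes rose (Neurod2, 1.63). The list's sums were 5.21 to 6.54 and 12.8 to 16.9 FPKM. Neurod6 had overlapping groups (2.72 and 3.55 FPKM in control bulbs, 3.08 and 4.03 in mutant bulbs) and did not pass (limma adjusted p = 0.547). The Neurod2 call was lost without DCKO replicate 1 (adjusted p = 0.0584) and with no filter (0.0521). Fezf2 (0.99, adjusted p = 0.0542) passed without DCKO replicate 2 (0.0215), with the smaller pseudocounts (0.0421 and 0.0482) and on scaled counts (0.0278). No marker in these lists was at 0 in any library. The rises of these markers and of Npy are in relative values, and the part of the lower GABAergic and granule cell transcripts in them was not tested. The part of these cell types in the changes of Npy, Npy2r, Sst and Sstr3 was not tested.

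The targeted genes followed the labels: Sp8 went from 32.0 and 26.7 FPKM to 1.68 and 2.03, and Sp9 from 24.0 and 30.7 to 0.0674 and 0.236. Divided by each library's step, the scaled counts came to about 14911137 and 15970131 fragments in the controls and 15250552 and 16116737 in DCKO, so the genotypes overlapped in depth.

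The genes with the nearest pattern over the 4 libraries, by Euclidean distance between profiles of log2(FPKM + 1) centred on each gene's mean, were Cav1, Pou3f1 and Lxn for Npy (distances 0.0437 to 0.0472), and Dlgap4, Slco5a1 and Wipf3 for Sstr3 (0.0427 to 0.0532). For Sst they were the neuropeptide galanin gene Gal, the neurturin gene Nrtn and the stress-induced factor Atf3, at larger distances (0.316 to 0.464). For the members that did not pass the test, the nearest were Hmgb1, Srpx and Gsap for Npy1r, Cox11, Dnajc21 and Nox1 for Sstr1, Cthrc1, Ydjc and Serf1 for Sstr2, and Csrp2, Col13a1 and Capsl for Sstr4. With 4 libraries such likeness describes these samples only.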

How the data were processed

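RNA of 4 mouse olfactory bulb libraries was analysed from 1 deposited table. The submitters' processing notes name TopHat, without a version, and Cufflinks 2.1.1, with the mouse build GRCm38.p4. Which annotation and which strand setting were used is not given in the sources used here. Per the file headers, FPKM columns were made by the authors. The columns headed count are treated as a signal that the authors scaled, since each library has a step that divides 98.2% to 98.8% of its nonzero values evenly, to within 0.05 of a step. Dividing by that step gave the approximate fragments quoted, and no count model was run. All 8 columns were mapped to samples by the codes in the sample descriptions, with 0 left unmapped.

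DCKO minus control was tested on log2(FPKM + 1) by limma 3.58.1 (R 4.3.3) with a variance trend, two-sided, over the 13434 genes whose mean reached 1 FPKM, with Benjamini-Hochberg adjustment over all of them. The members and lists were chosen with earlier results of these data known. All members are named. Of each pathway list the called genes are named (if none was called, the 2 with the highest mean), and of each marker list the called gene of largest change. Lhx6, Scg5, Pcsk1n, Vgf, Mme, Dpp4, Fezf2, Neurod6, Cldn5 and Fabp7 were named after their values were seen. So was the rest of the interneuron list, and the motifs were chosen then too. 1 gene of the interneuron list is not reported here, and the list's counts and median leave it out. Coordinates are from GENCODE M21 (GRCm38) and promoters from RefSeq. The fit was run on simulated data with changes set in genes of higher mean. That run does not bear on low genes or on smaller changes. Alternatives covered the pseudocount, filter, scaling, variance trend, unit, a replicate block and each library left out.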

Additional observations from a re-analysis of the deposited data

How the results depend on the processing

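Sstr3 fell in every alternative that tested it, between -1.51 and -0.80 on the log2 scale, with adjusted p from 0.00933 to 0.0425. A filter raised to 5 FPKM left it untested, so 1 member was called lower. Npy kept its direction in all 14 alternatives (0.58 to 0.90) and lost its call in 1 of them, without control replicate 1 (0.72), where 0 members were called higher. Sst kept its direction in all 13 (-1.85 to -0.85) and lost its call in 4: with no filter and without the variance trend at an unchanged -1.35, without DCKO replicate 1 (-1.21) and without DCKO replicate 2 (-1.49). In each of these 4, 1 member was called lower. With no filter 2 members were called higher, the added one being Npy2r. A fit of scaled counts with a mean of at least 10 also gave 2, but that filter was chosen after the values were seen and Npy2r passes it only through its DCKO libraries, so it supports nothing. Across all genes, leaving out 1 library gave 1030 to 1875 lower and 806 to 1384 higher calls, against 1926 and 1747, and with 1 library left in a genotype that library was assumed to vary like the other genotype's pair. Whether the replicate numbers pair the libraries was not settled, since 2 libraries per genotype are too few to tell. The correlation of same-numbered deviations across tested genes was -0.0211. Replicate 2 lay above replicate 1 in both genotypes for every member except Sstr4. The fit with a replicate block called 1418 genes lower and 1312 higher, with 2 members lower and 1 higher. The block narrowed the Sst confidence interval to -1.84 to -0.86 (limma adjusted p = 0.0162) and that of Sstr2 to -0.30 to 0.35. The intervals of Npy, Npy1r and Sstr1 narrowed too, and those of Sstr3 and Sstr4 widened. Under the block Scg5 was called lower (adjusted p = 0.0187), Fezf2 was called higher (0.0469), and the calls of Chga (0.0538), Scg3 (0.0855), Gnao1 (0.102), Fabp7 (0.0727) and Pdgfrb (0.0501) were lost, so that 1 of 7 dense core vesicle genes rose. Low depth limits Npy2r, Npy5r and Cort, each with under 30 fragments per library.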
